A study of Mus musculus with 168 samples.

Results

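Spleen natural killer (NK) cells of mice given the compound SB00526226 by gavage 14 times were compared with those of mice given SB00526222 14 times. The arrays were chosen by their labels: NK cells of the spleen, 14 or 15 treatments, and 1 of these 2 compounds. This gave 9 of the 168 arrays of the series, 4 for SB00526226 and 5 for SB00526222, out of 27 spleen NK arrays in all. Both compounds belong to a series of JAK inhibitors known here only by code, and no label read here states a dose, so a difference between them is one at unstated doses.

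All mice were male C57BL/6 animals aged 6 weeks, and the cells were labelled NK1.1+. The 4 SB00526226 arrays were taken 14, 17, 14 and 17 hours after the last treatment (replicates 1 to 4), against 14, 15, 15, 14 and 17 hours for the 5 SB00526222 arrays (replicates 1 to 5). The NK arrays of vehicle, 0.5% MC (methylcellulose), numbered 3: 2 after 14 treatments and 14 hours, and 1 after 15 treatments and 15 hours. Each of the 27 arrays carried a number of its own within its experiment in its title, taken here as the animal number. The labels do not say that it is one, nor which samples were separate animals. Each p-value therefore reflects only how far these samples spread, which may be technical.

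NK cells are lymphocytes that kill infected or transformed cells with granzymes and perforin, without prior sensitisation. Their survival and maturation depend on interleukin-15, whose receptor signals through JAK1 and JAK3 to STAT5, while type I interferons signal through JAK1 and TYK2, interferon gamma through JAK1 and JAK2, and interleukin-12 through JAK2 and TYK2. A JAK inhibitor blocks the kinases at the head of these pathways, and SOCS and CISH proteins, made in response to STATs, damp them.

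The compounds were set against each other within an experiment, the first part of each array title. Experiment J2 held 1 array of SB00526226 and 1 of SB00526222, and experiment J8 held 3 of SB00526226 and 2 of SB00526222. The other 2 SB00526222 arrays came from J3, which held no SB00526226, so they entered the estimate of the spread and not the difference. Replicate 4 of SB00526226 stood apart: its mean correlation with the other NK arrays was 0.922, below the bound of 0.940 (the lower quartile less 1.5 interquartile ranges), as was that of 2 SB00526221 arrays. Values without it are given beside some of the results that moved when it was left out, and not for every leading gene.

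All 12 NK marker genes lay above the median of their array in all 9 arrays, and their mean log2 intensity ran from 11.923 to 12.199 in SB00526226 arrays and from 11.826 to 12.289 in SB00526222 arrays. Markers of dendritic cells were higher in the J2 array of each compound than in its other arrays. The mean of 14 such genes was 8.643 in the J2 array of SB00526226 and 8.744 in that of SB00526222. It was 7.184 to 7.228 in the J8 arrays of SB00526226 and 6.993 to 7.390 in the J3 and J8 arrays of SB00526222. J2 itself was not uniform: SB00526228 replicates 2 and 3, both of J2, had 9.582 and 7.062. Clec9a, an endocytic receptor of cross-presenting dendritic cells, stood at 8.20 in the J2 array of SB00526226 and 8.38 in that of SB00526222. In the other 7 arrays it lay between 4.89 and 5.25, below the array median. The mean of splenic macrophage markers was 6.302 to 6.571 in SB00526226 arrays and 6.280 to 7.630 in SB00526222 arrays, the top value being replicate 3 of J3, which does not enter the difference. The part of dendritic cell RNA in the compound differences was not tested, and the differences within J8, which leave the J2 arrays out, are given for the 12 leading genes. Markers of innate lymphoid cells other than NK, a list that shares Gata3 and Il7r with the NK maturation list used later, were above the median in all 9 arrays in 7 of 8 measured. Their mean was lower under SB00526226 within both experiments. In J2, with 1 array against 1, it was 8.832 under SB00526226 and 8.900 under SB00526222. SB00526221 replicates 1 and 2, also of J2, had 8.865 and 9.166. In J8 it was 8.565 to 8.704 in 3 arrays under SB00526226 and 8.792 and 9.068 under SB00526222. Over all arrays the groups overlapped, since the J3 arrays of SB00526222 had 8.647 and 8.840. The part of such cells in the differences, those of the maturation genes included, was not tested. Of 12 T cell markers 6 were above the median in all 9 arrays, and their mean was 7.432 to 7.795 in SB00526226 arrays and 7.516 to 8.010 in SB00526222 arrays. Of 10 B cell markers measured, 3 were above the median in all 9 arrays. Their mean was 6.91 in SB00526226 replicate 4, against 6.51 to 6.64 in the other SB00526226 arrays and 6.52 to 6.62 in SB00526222 arrays. The part of B cell RNA in the differences was not tested. Erythroid and granulocyte markers were low throughout, with 0 of 7 and 0 of 13 measured genes above the median in all 9 arrays. In cells measured in bulk, fewer cells of a type and less RNA per cell cannot be told apart.

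No gene passed the test between the compounds. Of 11008 genes tested with limma, with group and experiment in the model and all 27 NK arrays setting the spread, 0 had an adjusted p under 0.05 (0% called), and the smallest adjusted p was 0.0909. At an unadjusted p under 0.05 there were 614 genes (5.58%), 206 with a higher level under SB00526226 (1.87%) and 408 with a lower one (3.71%). That count of 614 became 338 without SB00526226 replicate 4, 944 without replicate 1 and 950 without replicate 3. The median log2 difference over all genes was −0.02. The sections below give values for the genes at the top of that ranking and for lists of genes of known function; none of them is called, and a p that misses the threshold does not show that the compounds act alike.

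**Figure D1:**
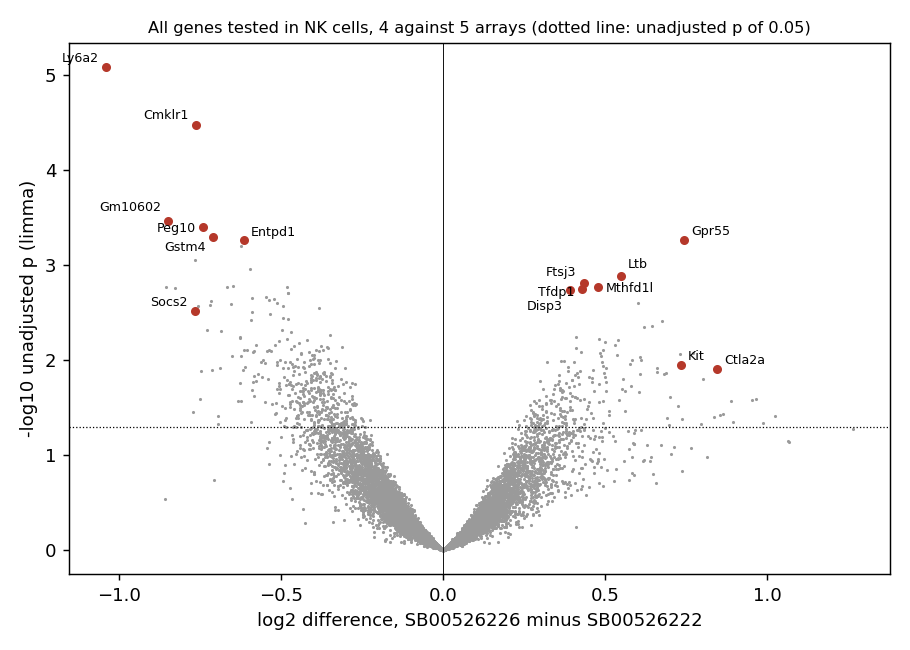
Every gene tested in NK cells, by its log2 difference between SB00526226 and SB00526222 (x axis, positive where SB00526226 is higher) and the −log10 of its unadjusted limma p (y axis); red points are genes named in the text. Ly6a2 and Cmklr1, both lower under SB00526226, lie at the top left, and the highest point on the right is Gpr55.

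The 2 genes with the lowest statistics were Ly6a2 and Cmklr1, and the 2 with the highest were Gpr55 and Ltb. Their promoters are shown because the inhibited kinases act through STAT factors, whose binding motif is TTCNNNGAA. The sequences are from RefSeq on GRCm38.p6, 300 bases around each gene start, in the direction of the gene, with any match to that motif in capitals.
Ly6a2: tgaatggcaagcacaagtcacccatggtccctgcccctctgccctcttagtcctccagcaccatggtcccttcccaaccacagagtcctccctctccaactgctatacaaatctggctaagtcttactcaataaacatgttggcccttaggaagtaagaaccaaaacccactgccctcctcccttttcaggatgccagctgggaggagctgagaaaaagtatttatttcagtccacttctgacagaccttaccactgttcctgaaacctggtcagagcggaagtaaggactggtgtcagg
Cmklr1: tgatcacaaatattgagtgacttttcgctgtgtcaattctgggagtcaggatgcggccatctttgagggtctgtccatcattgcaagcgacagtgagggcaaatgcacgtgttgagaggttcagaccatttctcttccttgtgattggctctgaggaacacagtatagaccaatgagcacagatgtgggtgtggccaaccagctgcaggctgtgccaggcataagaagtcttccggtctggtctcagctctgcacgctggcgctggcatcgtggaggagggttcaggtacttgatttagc
Gpr55: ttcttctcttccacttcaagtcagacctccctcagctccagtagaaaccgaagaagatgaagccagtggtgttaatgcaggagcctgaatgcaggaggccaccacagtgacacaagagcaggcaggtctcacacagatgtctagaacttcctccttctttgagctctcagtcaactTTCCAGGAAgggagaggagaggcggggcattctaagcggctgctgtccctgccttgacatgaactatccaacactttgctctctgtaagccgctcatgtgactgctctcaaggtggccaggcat
Ltb: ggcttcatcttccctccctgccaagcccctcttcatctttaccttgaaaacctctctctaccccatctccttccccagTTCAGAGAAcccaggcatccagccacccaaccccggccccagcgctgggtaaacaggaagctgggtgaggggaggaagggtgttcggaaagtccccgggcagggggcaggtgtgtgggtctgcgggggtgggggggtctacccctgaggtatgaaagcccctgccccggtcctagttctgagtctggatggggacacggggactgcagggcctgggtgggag

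The windows lie at chr15:75135079-75135378 on the minus strand (Ly6a2), chr5:113643554-113643853 on the minus strand (Cmklr1), chr1:85961006-85961305 on the minus strand (Gpr55) and chr17:35194257-35194556 on the plus strand (Ltb). Gpr55 had 1 match to TTCNNNGAA, beginning 74 bases before the gene start, and Ltb had 1, beginning 172 bases before it. The letters reverse into themselves, so both strands were read at once. Of all 32851 promoters of 300 bases in the RefSeq table, 8.30% held TTCNNNGAA. A match is a run of letters and not a site known to be bound, and its absence says only that the letters are not in this window.

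Ly6a2, a member of the Ly6 family of GPI-anchored surface proteins, gave the smallest p. Its log2 intensity was 10.85, 10.90, 11.37 and 10.84 in the SB00526226 arrays (replicates 1 to 4), against 11.48, 12.12, 11.98, 12.38 and 12.11 in the SB00526222 arrays (replicates 1 to 5). The groups did not overlap. The fitted difference was −1.04 ± 0.18 (SE; 95% interval −1.42 to −0.66; limma adjusted p = 0.0909), a 2.05-fold lower level under SB00526226 that missed the threshold. It was −0.63 within J2 and −1.21 within J8. It passed in 3 of 22 alternative fits: −1.04 with experiment as a random block (limma adjusted p = 0.038), −0.98 with hours as a covariate (0.040) and −0.83 with array weights (0.024). Other fits moved it further from the threshold. Without SB00526226 replicate 2 or 4 the smallest limma adjusted p of any gene was 0.581 or 0.595. Without SB00526222 replicate 4 or 5 that smallest value was 0.955 or 0.706. The difference of Ly6a2 ran from −1.21 to −0.83 over the alternatives. Ly6 genes resemble one another, and whether this probe set reads a relative as well was not checked.

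Cmklr1, the receptor for the chemoattractant chemerin, which marks mature NK cells in mice, was next. It measured 9.33, 9.43, 9.47 and 9.18 under SB00526226 and 9.93, 10.06, 10.25, 10.16 and 10.19 under SB00526222. All 4 values lay below all 5, and the range within each group was smaller than the difference. The difference was −0.76 ± 0.15 (SE; 95% interval −1.07 to −0.46; limma adjusted p = 0.183), with −0.60 within J2 and −0.82 within J8. It passed in 2 of the 22 alternative fits: −0.77 with experiment as a random block (limma adjusted p = 0.038) and −0.67 with array weights (0.024). Leaving out the single arrays named for Ly6a2 put the limma adjusted p of Cmklr1 at the values given there or above. Its difference ran from −0.85 to −0.67 over the alternatives.

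Among all genes, 204 (1.85%) were lower in each of the 4 SB00526226 arrays than in each of the 5 SB00526222 arrays, and 149 (1.35%) were higher in each. Non-overlap by itself is therefore not rare here. Within both J2 and J8, where J2 sets only 1 array against 1, 856 genes (7.78%) were lower without overlap and 575 (5.22%) higher.

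Entpd1 encodes CD39, an ectoenzyme that hydrolyses extracellular ATP and ADP. Its values were 8.674, 9.124, 8.929 and 9.058 under SB00526226 and 9.163, 9.604, 10.142, 9.679 and 9.758 under SB00526222. The highest of the first group lay just under the lowest of the second, which came from J2. The difference was −0.61 ± 0.15 (limma adjusted p = 0.847), and −0.49 in J2 and −0.68 in J8.

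Peg10, Gstm4 and Gm10602 completed the 6 lowest statistics. Peg10, an imprinted gene derived from a retrotransposon, lay at 7.17 to 7.47 in the 4 SB00526226 arrays and at 7.54 to 8.31 in the 5 SB00526222 arrays, a difference of −0.74 ± 0.18. Gstm4, a glutathione transferase, was 7.86, 8.08, 8.37 and 7.63 under SB00526226 and 8.40, 8.81, 8.52, 8.81 and 8.76 under SB00526222, a difference of −0.71 ± 0.18. The values of Peg10 and Gstm4 did not overlap between compounds. The predicted gene Gm10602, whose role is not given here, was 7.84, 6.92, 7.02 and 7.10 under SB00526226 and 8.30, 7.74, 7.65, 8.12 and 7.84 under SB00526222. Its groups overlapped through the J2 array of SB00526226, and its difference was −0.85 ± 0.20. Within J8 the differences were −0.73 for Peg10, −0.75 for Gstm4 and −0.97 for Gm10602. The limma adjusted p was 0.847 for Peg10, Gstm4 and Gm10602.

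**Figure D2:**
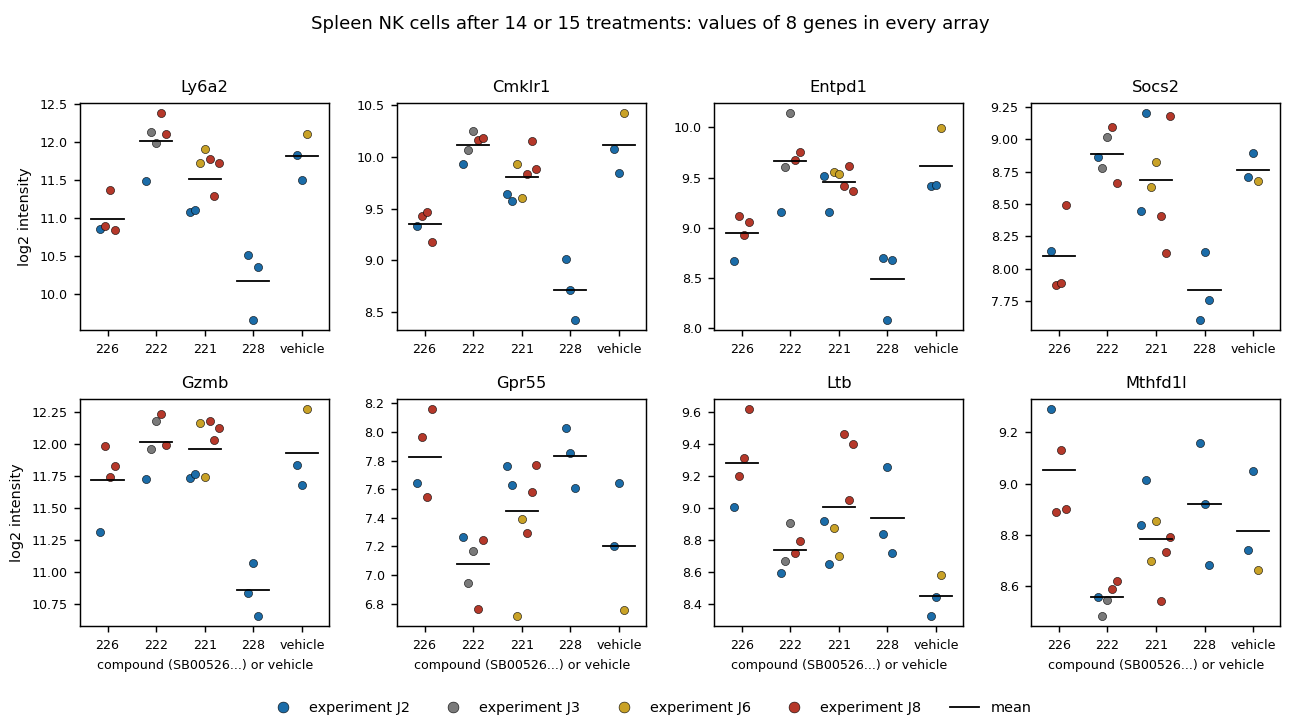
log2 intensity (y axis) of 8 genes in every prolonged NK array, by compound (named by the end of its code) with vehicle last; points are arrays coloured by experiment and bars are group means. Ly6a2, Cmklr1, Entpd1 and Socs2 lie lower in SB00526226 arrays than in SB00526222 arrays, and Gpr55, Ltb and Mthfd1l lie higher.

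At the other end, Gpr55, a G protein-coupled receptor for lysophosphatidylinositol, was 7.64, 7.97, 7.54 and 8.16 under SB00526226 and 7.26, 6.94, 7.17, 6.76 and 7.25 under SB00526222. Every SB00526226 array was above every SB00526222 array. The difference was 0.74 ± 0.19 (SE; 95% interval 0.36 to 1.13; limma adjusted p = 0.847), with 0.38 in J2 and 0.88 in J8. Ltb, the lymphotoxin beta subunit that lymphocytes use to organise lymphoid tissue, was 9.007, 9.202, 9.312 and 9.618 under SB00526226 and 8.596, 8.671, 8.908, 8.717 and 8.793 under SB00526222. Its groups did not overlap, and its difference was 0.55 ± 0.15 (limma adjusted p = 0.847), with 0.41 in J2 and 0.62 in J8.

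The next genes of that end were Ftsj3, Mthfd1l, Tfdp1 and Disp3. Ftsj3, which serves ribosomal RNA processing, was 7.96, 7.98, 8.04 and 8.03 under SB00526226 and 7.47, 7.23, 7.65, 7.61 and 7.63 under SB00526222, a difference of 0.43 ± 0.12. Mthfd1l, an enzyme of mitochondrial folate metabolism, was 9.290, 8.891, 9.131 and 8.901 under SB00526226 and 8.557, 8.485, 8.546, 8.591 and 8.623 under SB00526222, a difference of 0.48 ± 0.13. Tfdp1, the DNA-binding partner of E2F factors, differed by 0.43 ± 0.12, with overlap through 2 SB00526222 arrays of J3 at 9.45 and 9.49 against 9.37 and 9.48 in SB00526226 replicates 1 and 2. Disp3, a relative of the Dispatched membrane proteins, differed by 0.39 ± 0.11 without overlap. Within J8 the differences were 0.40 for Ftsj3, 0.37 for Mthfd1l, 0.38 for Tfdp1 and 0.40 for Disp3. All 4 had a limma adjusted p of 0.847.

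Among genes of the JAK-STAT pathway, Socs2 lay furthest apart. Socs2, a STAT5 target that restrains cytokine and growth hormone receptors, was 8.135, 7.877, 7.890 and 8.495 under SB00526226 and 8.867, 8.777, 9.020, 9.099 and 8.662 under SB00526222. The groups did not overlap, and the difference was −0.76 ± 0.23 (95% interval −1.24 to −0.29; limma adjusted p = 0.847), with −0.73 in J2 and −0.79 in J8. When the mean of all probe sets of a gene was used in place of the brightest, the difference was −0.29 (limma adjusted p = 0.867), and over the 22 alternatives it ran from −0.91 to −0.29. The other feedback inhibitors lay near 0: Cish at −0.02 ± 0.20 (95% interval −0.42 to 0.39), Socs1 at −0.04 ± 0.21 (−0.48 to 0.40) and Socs3 at 0.01 ± 0.17 (−0.35 to 0.37). These intervals leave room for differences in either direction.

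Of the kinases, Jak1 had a difference of −0.01 ± 0.15, Jak2 of −0.17 ± 0.27 and Tyk2 of −0.34 ± 0.21, which became −0.19 without SB00526226 replicate 4. Jak3 was not among the genes tested, so no value is given for it. The STAT5 genes Stat5a and Stat5b had differences of −0.11 ± 0.13 and 0.06 ± 0.16, and the STAT5 targets Bcl2, Pim1 and Myc of 0.03 ± 0.25, 0.08 ± 0.25 and 0.08 ± 0.25. The signs of Cish, Socs1, Socs3, Jak1, Jak2, Stat5b, Bcl2 and Pim1 turned in 1 or more alternative fits. Il10rb, the shared receptor chain for interleukin-10 and interferon lambda, had −0.39 ± 0.14 (limma adjusted p = 0.847). Over the 35 tested genes of cytokine receptors, JAKs, STATs and their inhibitors, 12 differences were above 0 and 23 below, with a median of −0.04, beside −0.02 and 5051 of 11008 above 0 for all genes. At an unadjusted p under 0.05, 1 was higher and 2 lower, beside 1.87% higher and 3.71% lower over all genes. Without SB00526226 replicate 4 the list turned, with 20 above 0 and 15 below and a median of 0.04. Of 25 tested targets of STAT5, interleukin-2 or interleukin-15, 14 were above 0 (median 0.03), 1 higher and 3 lower at that p, and over the 22 alternatives the median ran from −0.01 to 0.07.

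Interferon-stimulated genes, which type I interferons raise through JAK1 and TYK2, showed no gene at an unadjusted p under 0.05 in either direction among 36 tested. Their median was 0.03, with 20 above 0, and the range ran from −0.20 to 0.59. Ifit3, an antiviral protein, gave the top value, 0.59 ± 0.32. Ifit1 had 0.26 ± 0.33. Over the 22 alternatives the median of the list ran from −0.02 to 0.09.

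Effector genes differed by small amounts. Gzmb, the main granzyme for inducing apoptosis in targets, was 11.313, 11.980, 11.743 and 11.829 under SB00526226 and 11.722, 11.959, 12.174, 12.228 and 11.987 under SB00526222. Those values overlap, and the fitted difference was −0.30 ± 0.13 (limma adjusted p = 0.847). Prf1, the pore former, had −0.17 ± 0.15, and Rab27a, which docks lytic granules, had 0.38 ± 0.15, or 0.24 without SB00526222 replicate 4. Nkg7, a granule protein of killer lymphocytes, had −0.27 ± 0.12, with −0.01 in J2 and −0.38 in J8. Of 26 tested cytotoxic granule genes, 9 were above 0, with a median of −0.04. Of 31 NK receptor genes, 16 were above 0, with a median of 0.01 that ran from −0.10 without SB00526222 replicate 1 to 0.13 without SB00526222 replicate 4. Fcgr3, the Fc receptor CD16 by which NK cells recognise antibody-coated targets, was the one with an unadjusted p under 0.05, at −0.41 ± 0.18 (limma adjusted p = 0.868), and Ncr1, the activating receptor NKp46, had −0.08 ± 0.12.

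Genes of the NK maturation list leaned to lower values under SB00526226 than under SB00526222. The list holds genes of mature NK cells, such as Cmklr1, and of less mature ones, such as Kit. Its counts, median and mean therefore do not measure how mature the cells were. Of the 26 measured and tested, 21 were below 0, beside 5957 of 11008 over all genes. The median was −0.16, beside −0.02 over all genes. At an unadjusted p under 0.05, 4 were lower (Cmklr1, Entpd1, F2rl2 and Gata3) and 2 higher (Kit and Ctla2a). Over all genes 3.71% were lower and 1.87% higher at that p. The mean of the list was 10.02, 10.06, 10.09 and 10.03 in SB00526226 arrays and 10.10, 10.17, 10.28, 10.24 and 10.15 in SB00526222 arrays, with no overlap, while the vehicle arrays had 10.11, 10.17 and 10.44. The median stayed below 0 in all 22 alternative fits, from −0.22 to −0.11. Some of these could not move a gene's difference: leaving out J3 arrays, another filter or another eBayes prior. In those fits the median was −0.16 as before. The median was −0.07 within J2 and −0.145 within J8, beside 0.01 and −0.03 over all genes. Against vehicle the median was −0.13 for SB00526226 and −0.12 for SB00526222, 2 comparisons that share the vehicle arrays.

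Kit, the stem cell factor receptor, carried by less mature NK cells, was chosen after its values were seen, as were F2rl2, Gata3, Nkg7 and Cdk1. It measured 9.734, 9.886, 9.767 and 9.680 under SB00526226 and 9.378, 8.588, 8.500, 8.957 and 8.869 under SB00526222, without overlap. The difference was 0.73 ± 0.27 (limma adjusted p = 0.847), and 0.36 in J2 and 0.86 in J8. A vehicle array of J2 stood at 9.760, among the SB00526226 values, and the other vehicle arrays at 8.927 and 8.607. F2rl2, a protease-activated receptor, differed by −0.62 ± 0.26, and by −0.36 without SB00526222 replicate 4. Klrg1, an inhibitory receptor of terminally mature NK cells, was 9.63, 10.17, 10.47 and 10.88 under SB00526226 and 9.85, 10.82, 11.32, 11.04 and 10.80 under SB00526222, a difference of −0.36 ± 0.27 with wide overlap. Ctla2a, an inhibitor of cysteine proteases, spanned 6.63 to 9.27 within SB00526226 alone and 6.51 to 7.92 within SB00526222. Its difference of 0.84 ± 0.31 became 0.53 without SB00526226 replicate 4 and 0.50 without SB00526222 replicate 5.

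NK transcription factor genes leaned the same way, with 24 of 29 below 0, beside 5957 of 11008 over all genes, and a median of −0.14. Irf8, an interferon regulatory factor, was 11.14, 11.03, 11.44 and 10.81 under SB00526226 and 11.26, 11.46, 11.59, 11.86 and 11.73 under SB00526222, overlapping by 1 array, at −0.54 ± 0.18. Runx3, a runt-domain factor of cytotoxic lymphocytes, was 11.543, 11.232, 11.348 and 10.555 under SB00526226 and 11.995, 11.577, 11.465, 11.532 and 11.525 under SB00526222, at −0.50 ± 0.20. Leaving out SB00526226 replicate 4, its lowest array, gave −0.31 for Runx3 and −0.42 for Irf8, and moved the median of the list to −0.08 with 22 below 0. Gata3 had −0.29 ± 0.13.

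**Figure D3:**
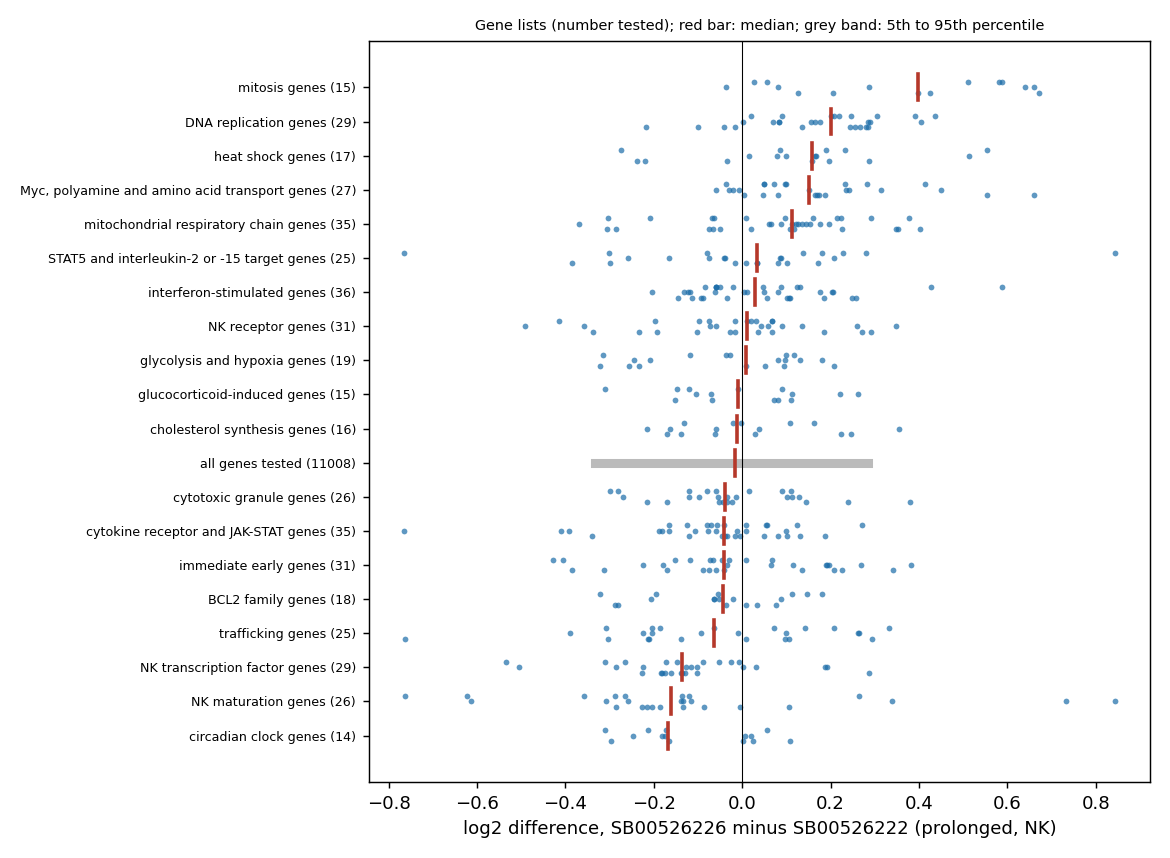
Log2 difference between SB00526226 and SB00526222 (x axis) of each tested member (blue points) of 19 gene lists (y axis, with the number tested), ordered by the list median (red bar), with the median and the band from the 5th to the 95th percentile of all 11008 genes. Mitosis genes have the highest median, 0.40, and circadian clock genes the lowest, −0.17.

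Genes of cell division had the highest medians. Of 35 mitosis genes, 34 were measured but only 15 passed the filter on low values, so the count covers the brighter ones: 14 of 15 were above 0, with a median of 0.40. Without the filter, 33 of 34 were above 0 and the median was 0.20. Top2a, the topoisomerase that untangles replicated chromosomes, was 8.11, 7.75, 7.35 and 7.85 under SB00526226 and 7.11, 7.63, 6.88, 7.48 and 6.84 under SB00526222. Those groups overlapped, and the difference was 0.66 ± 0.25 (limma adjusted p = 0.847). Stmn1, which destabilises microtubules, differed by 0.58 ± 0.23 (0.31 without SB00526222 replicate 5), and Cdk1, the kinase that drives entry into mitosis, by 0.51 ± 0.23, both with overlap.

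The mean over the 15 mitosis genes was 7.86, 7.62, 7.52 and 7.79 in SB00526226 arrays and 7.42, 7.89, 7.21, 7.58 and 7.09 in SB00526222 arrays. The highest of the 9 values belonged to an SB00526222 array of J3. The 3 vehicle arrays had 8.34, 7.48 and 7.39, so they spanned more than either compound. The median difference was −0.10 for SB00526226 and −0.41 for SB00526222 when each was set against vehicle, 2 comparisons that share the vehicle arrays.

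DNA replication genes were above 0 in 25 of 29 (median 0.20), and in 21 of 29 without SB00526222 replicate 5 (median 0.12). Mcm7, a subunit of the replicative helicase, had 0.39 ± 0.17 without overlap, but 0.25 without SB00526226 replicate 1 and 0.23 without SB00526222 replicate 5. Dut, which keeps uracil out of DNA, had 0.40 ± 0.14 with overlap. The list mean was 8.10, 8.15, 7.95 and 8.06 under SB00526226, against 7.84, 7.98, 7.90, 8.05 and 7.78 under SB00526222. Genes of Myc, polyamine synthesis and amino acid transport were above 0 in 22 of 27 (median 0.15, but 0.08 without SB00526226 replicate 1 and 0.07 without SB00526222 replicate 5). Nop58, of the ribosomal RNA modification machinery, had 0.66 ± 0.24 with overlap, and Tfrc, the transferrin receptor, 0.55 ± 0.22 without. At an unadjusted p under 0.05, 3 mitosis, 3 replication and 4 Myc-list genes were higher and 0 lower, beside 1.87% higher over all genes, and none of these passed the limma adjusted threshold. Single arrays moved those counts: they were 0, 1 and 1 without SB00526222 replicate 5, 1, 1 and 1 without SB00526222 replicate 1, 6, 4 and 5 without SB00526222 replicate 4, and 1, 6 and 1 without SB00526226 replicate 4. Without SB00526226 replicates 1, 2 and 3 in turn they were 2, 1 and 4, then 2, 2 and 1, then 4, 6 and 4.

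**Figure D4:**
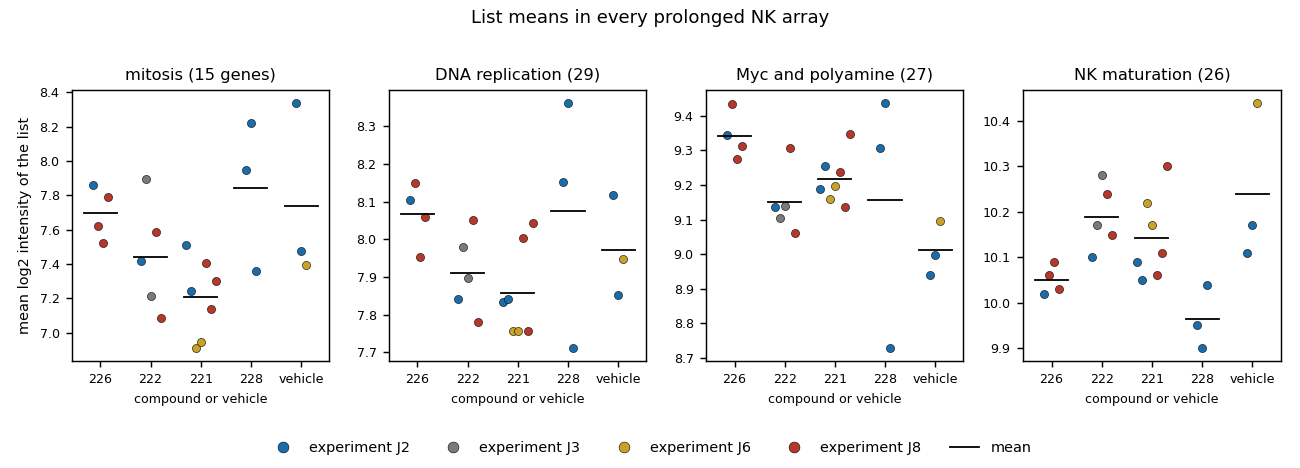
Mean log2 intensity (y axis) of 4 gene lists in every prolonged NK array, by compound (named by the end of its code) with vehicle last; points are arrays coloured by experiment and bars are group means. The mitosis means overlap between SB00526226 and SB00526222, with 7.52 to 7.86 against 7.09 to 7.89, while the NK maturation means do not, with 10.02 to 10.09 against 10.10 to 10.28.

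Other lists rested on single arrays or lay near the background. Heat shock genes were above 0 in 13 of 17 (median 0.16), with Hsph1, a co-chaperone of the Hsp70 system, at 0.56 ± 0.21, but without SB00526222 replicate 1 the median was −0.00431 with 8 of 17 above 0, and it was 0.06 without SB00526226 replicate 2 or SB00526222 replicate 5. Mitochondrial respiratory chain genes were above 0 in 25 of 35 (median 0.11). Without SB00526226 replicate 4 that became 18 of 35 (median 0.02), and without SB00526222 replicate 5 it became 19 of 35 (median 0.01). Circadian clock genes had a median of −0.17, with 8 of 14 below 0, and −0.09 without SB00526226 replicate 4 and −0.08 without SB00526222 replicate 1. Of 25 trafficking genes 14 were below 0 (median −0.06), but 12 without SB00526226 replicate 4 (median 0.02). S1pr1, the receptor that lets lymphocytes leave lymphoid organs, had −0.30 ± 0.14, or −0.15 without SB00526222 replicate 4. The medians of the BCL2 family, immediate early, glucocorticoid-induced, cholesterol synthesis and glycolysis lists lay between −0.04 and 0.01, and each of these 5 changed sign in 1 or more of the alternatives.

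The vehicle NK arrays came from J2 (replicates 1 and 2) and J6 (replicate 3), and none from J8, which held 3 of the 4 SB00526226 arrays. Raw levels in vehicle therefore stand beside J8 levels of another experiment, and the fitted differences from vehicle reach the J8 arrays only through the experiment term. A second vehicle, 0.5% MC at pH 3, was labelled on no NK array, so these differences are from plain 0.5% MC alone. The part of the vehicle's pH in them was not tested. Ly6a2 had 11.82, 11.50 and 12.10 in the vehicle arrays. The difference from vehicle was −0.95 ± 0.21 for SB00526226 (95% interval −1.39 to −0.52; limma adjusted p = 0.698) and 0.08 ± 0.22 for SB00526222 (−0.36 to 0.53; adjusted p = 1.00). Cmklr1, at 10.08, 9.84 and 10.42 in vehicle, differed by −0.89 ± 0.17 for SB00526226 (adjusted p = 0.300) and by −0.13 ± 0.18 for SB00526222 (adjusted p = 1.00). Entpd1 differed by −0.78 ± 0.18 for SB00526226 and by −0.16 ± 0.18 for SB00526222, and Socs2 by −0.58 ± 0.27 for SB00526226 and 0.19 ± 0.27 for SB00526222. Both comparisons use the same 3 vehicle arrays. Against vehicle, 0 of 11008 genes (0%) were called for SB00526226 and 0 (0%) for SB00526222, with 379 for SB00526226 and 235 for SB00526222 at an unadjusted p under 0.05.

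For Gpr55 and Ltb the differences from vehicle were 0.47 ± 0.21 and 0.53 ± 0.17 under SB00526226, and −0.27 ± 0.22 and −0.02 ± 0.18 under SB00526222. Gpr55 in vehicle ranged from 6.75 to 7.65 and overlapped both compounds, whereas Ltb in vehicle, at 8.33, 8.44 and 8.58, lay below every array of either compound. Klrg1 differed from vehicle by −1.10 ± 0.32 for SB00526226 and by −0.75 ± 0.32 for SB00526222, neither past the threshold.

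The other compounds of the series gave further levels. Under SB00526228, all in J2, Ly6a2 was 10.51, 9.66 and 10.35, and Cmklr1 ran from 8.42 to 9.01, below every SB00526226 and SB00526222 array. Under SB00526221, Ly6a2 ran from 11.08 to 11.91 and Cmklr1 from 9.57 to 10.15 in 7 arrays. The SB00526221 values of Cmklr1 lay above those of SB00526226 and overlapped those of SB00526222.

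After 3 treatments and 4 hours, in J2 alone, the same pair of compounds was measured in 2 arrays of SB00526226 and 1 of SB00526222. Ly6a2 was 10.69 and 10.56 in SB00526226, against 11.31 in SB00526222, a difference of −0.69 ± 0.29. Cmklr1 was 8.87 and 9.20 in SB00526226, against 9.41 in SB00526222, a difference of −0.37 ± 0.24. Gpr55 and Ltb had −0.10 ± 0.30 and −0.02 ± 0.24 at that time, and Socs2 −0.16 ± 0.37. No gene of 11008 was called after 3 treatments (0%; 315 at an unadjusted p under 0.05) or for the difference between the schedules (0%; 82). The lone SB00526222 array was taken to vary as the other groups do.

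**Figure D5:**
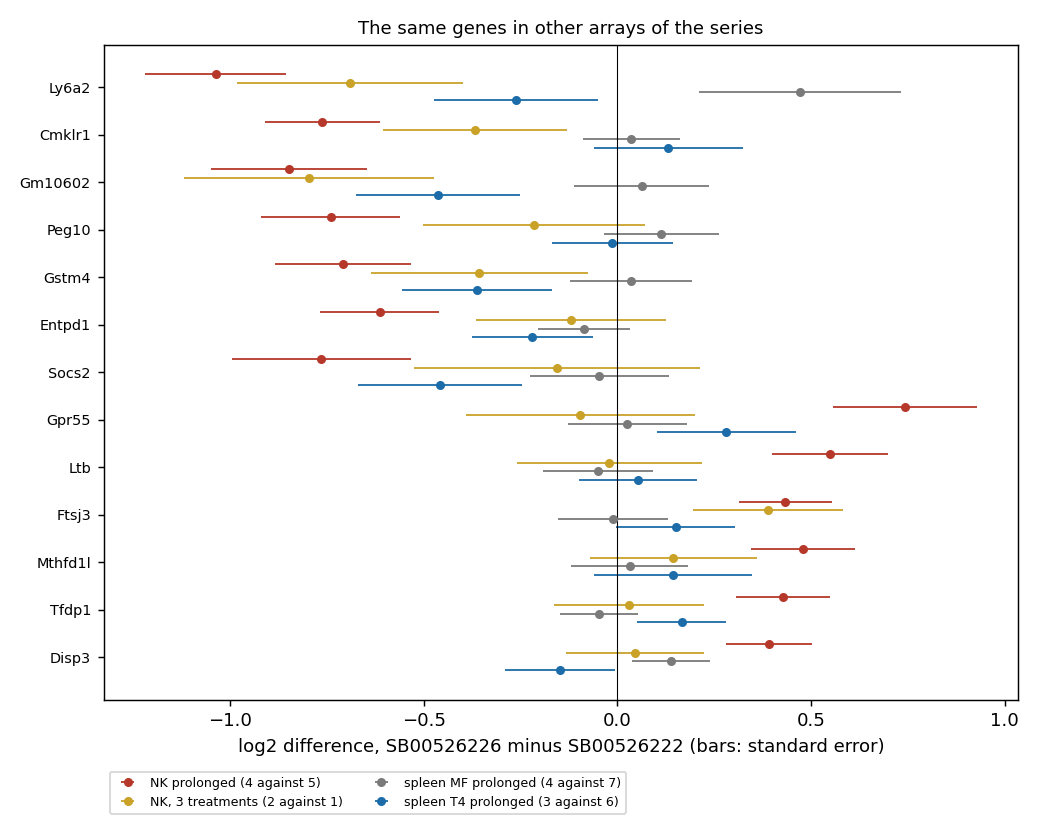
Log2 difference between SB00526226 and SB00526222 (x axis, with the standard error) of 13 genes (y axis) in prolonged NK cells, NK cells after 3 treatments, spleen MF arrays and spleen T4 arrays; the numbers of arrays are given as SB00526226 against SB00526222. Ly6a2 is at −1.04 and −0.69 in the NK comparisons and at 0.47 in MF and −0.26 in T4.

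In other spleen cells the leading differences took other values. In arrays labelled MF (4 against 7) Ly6a2 differed by 0.47 ± 0.26 and Cmklr1 by 0.04 ± 0.13. In arrays labelled T4 (CD4+ cells, 3 against 6) the values were −0.26 ± 0.21 and 0.13 ± 0.19. The difference of NK cells less that of MF was −1.51 ± 0.39 for Ly6a2 and −0.80 ± 0.19 for Cmklr1, with a limma adjusted p of 0.984 for both. Across all genes, 0 of 11849 (0%) differed between NK and MF in their compound difference, with 532 at an unadjusted p under 0.05, and 0 of 11617 (0%) between NK and T4, with 342. A compound difference particular to NK cells was thus not shown.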

How the data were processed

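Each deposited value is the intensity of a probe set on Affymetrix Mouse Gene 1.0 ST arrays, as summarised by the authors with RMA in Affymetrix Power Tools, per the submitters' processing notes. The sources used here give no versions, no annotation release and not which arrays were normalized together. Array medians ran from 119.5 to 142.3, so values were taken as linear and set on a log2 scale without a pseudocount (lowest value 5.11). Precision is limited by the number of arrays. No 2 of the 168 arrays were identical.

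Of 24922 probe sets, 21425 had 1 symbol in the platform annotation, 1399 several and 2098 none. Of these symbols 21347 matched RefSeq on GRCm38.p6 by gene identifier and 0 changed. For each of 19752 genes the brightest probe set was kept. A gene was tested if above its array's median in at least 3 NK arrays, which left 11008.

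limma 3.58.1 in R 4.3.3 was fitted to all 27 spleen NK arrays with group and experiment as fixed terms (16 residual degrees of freedom), with two-sided tests and Benjamini-Hochberg adjustment over all genes tested at 0.05. Comparisons with MF and T4 cells were fitted jointly with the animal, as read from the title number, as a random block. Named genes are the 6 lowest and 6 highest moderated statistics, the 2 largest statistics of each gene list and a set of JAK-STAT and NK genes. The lists, the members and the comparison were chosen with earlier results of these data known. The procedure was tested on simulated data. The alternatives tried were the array set, the experiment term, hours since treatment, normalization, filter, probe set rule, array weights, the eBayes prior and leaving out arrays.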

Additional observations from a re-analysis of the deposited data

Results flagged for a closer look

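Single arrays were compared with the rest of their group of 4 or 5 by Dixon's test, which chance passes in about 1 of 20 groups (5%). Of 194 checks, 16 passed, each naming 1 array far from the others of its group. Among genes in SB00526226 arrays, replicate 3 was high for Ly6a2 (11.37) and Il10rb (11.51), and replicate 4 was low for Jak2 (9.23) and Stat5b (8.866). In SB00526222 arrays, replicate 1 of experiment J2 was high for Runx3 (12) and low for Hspe1 (8.997) and Nfil3 (8.507).

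Among list means, SB00526222 replicate 4 stood off for NK transcription factor genes (9.85), and SB00526222 replicate 2 for cytokine receptor and JAK-STAT genes (9.669) and for circadian clock genes (8.036). Among marker means, SB00526222 replicate 1 was low for NK cell markers (11.83) and SB00526222 replicate 3 high for splenic macrophage markers (7.63). Large peritoneal macrophage markers stood off in SB00526226 replicate 2 (6.565) and SB00526222 replicate 1 (6.81). Dendritic cell markers were high in SB00526226 replicate 1 (8.643) and SB00526222 replicate 1 (8.744), the pair from J2. The part of these arrays in the results was not tested beyond leaving each out.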

How the results depend on the processing

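The count of 0 genes between the compounds held in 19 of 22 alternatives. It was 2 with experiment as a random block (Cmklr1 and Ly6a2), 1 with hours as a covariate (Ly6a2) and 11 with array weights, whose estimation stopped before convergence (among them Peg10, Socs2, Mthfd1l, Tfdp1 and Disp3, besides Cmklr1 and Ly6a2). Array weights also gave 212 genes for SB00526226 against vehicle and 21 for SB00526222 against vehicle; the cause was not tested. Leaving out any one array of the 2 compounds kept the count at 0. Some alternatives leave each gene's difference as it was: dropping J3 or an array of it, another filter, another eBayes prior. They change only the spread and the adjustment, so the 22 alternatives are not 22 separate checks of a difference. The 614 genes at an unadjusted p under 0.05 were 214 in J8 alone and 1287 with array weights. Of 1450 values of 66 named genes under alternatives, 1404 kept their direction and side of the threshold, 10 passed it and 36 turned sign, all in 8 genes whose differences lay between −0.17 and 0.08. Without the experiment term, Socs1 was 0.046, Cish 0.0080 and Socs3 −0.070. With experiment as a random block, Socs1 was 0.0063, Jak1 0.0052 and Socs3 −0.059. In J8 alone, Socs1 was 0.0055, Bcl2 −0.035 and Cish 0.10. With array weights, Socs1 was 0.015 and Jak1 0.018. Without the 3 arrays that stood apart, a setting chosen after seeing the data, Socs1 was 0.031, Jak1 0.072 and Cish 0.074. Quantile normalization gave 0.018 for Jak1, the fit of only the 9 arrays 0.0060 for Cish, hours as a covariate −0.0019 for Socs3, and the mean of all probe sets −0.033 for Socs3. Leaving out 1 array at a time, Jak2 ranged from −0.43 to 0.086, Stat5b from −0.010 to 0.16, Pim1 from −0.15 to 0.28, Socs1 from −0.15 to 0.11, Bcl2 from −0.052 to 0.12, Jak1 from −0.089 to 0.072, Cish from −0.13 to 0.16 and Socs3 from −0.075 to 0.12. No paired analysis was possible because each array of these groups carried an animal number of its own. The number that ends each title was the same in all of them. Replicate numbers follow deposit order and pair nothing.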
